A study of Caenorhabditis elegans with 2 samples.

Results

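The genes described here are the microRNA (miRNA) and long intergenic non-coding RNA (lincRNA) genes of the nematode Caenorhabditis elegans, and the question is where peaks of a tagged transcription factor lay in and before them. All nuclear genes of both biotypes in the Ensembl annotation of WBcel235 (ce11) were taken, except those with a snoRNA, snRNA or tRNA gene at 100 bp or less. That left 259 of 261 miRNA genes and 189 of 194 lincRNA genes, 448 of the 46890 nuclear genes annotated. Each gene received the strongest peak whose summit, the point of highest signal, lay inside the gene or up to 1000 bp upstream of its start.

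The peaks come from chromatin immunoprecipitation in whole hermaphrodites of strain OP470 at the L4 stage, the last before adulthood. The strain carries unc-119(tm4063) III and the integrated transgene wgIs470, which expresses the homeodomain protein DUXL-1 with a C-terminal GFP-FLAG tag. The labels' description gives an antibody against GFP, while their antibody field reads duxl-1. There were 2 biological replicates of this 1 group, both with the same alleles, and no groups to compare. Whole animals mix all tissues, the tagged protein comes from a transgene, and a control is not analysed here. A peak is therefore not by itself evidence of a site bound by DUXL-1.

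A miRNA gene encodes a hairpin that is cut to a short mature strand, which guides Argonaute proteins to messenger RNAs and lowers their output. Target choice rests mainly on the seed, bases 2 to 8 of the mature strand, so genes with the same seed form a family. In the worm, miRNAs were first found as timers of larval development: lin-4 acts early, and let-7 with its sisters mir-48, mir-84 and mir-241 acts later. Many worm miRNA genes lie in introns of protein-coding genes or in clusters that are transcribed together. LincRNA genes are transcribed from between protein-coding genes, are often spliced, and mostly have no known function.

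A gene with a peak in the list thresholded by the authors on the irreproducible discovery rate (IDR) was found in both classes at a similar share. Of the miRNA genes, 21 of 259 had a thresholded peak, which is 8.11% (95% Wilson interval 5.36 to 12.1). Of the lincRNA genes, 17 of 189 had one, which is 8.995% (5.69 to 13.9). The background was 4.31% of all nuclear genes, 7.67% of protein-coding genes and 3.49% of non-coding genes other than piRNA, miRNA and lincRNA genes, all filtered in the same way. Both intervals held the protein-coding share and lay above the shares of all nuclear genes and of the other non-coding genes. For miRNA genes the interval reached the share of all nuclear genes under 5 other settings. Among them, 200 bp upstream gave 3.09% (1.57 to 5.98) beside 2.4%, and peaks in the top candidates of both replicates gave 3.09% (1.57 to 5.98) beside 2.3%. For lincRNA genes it did so under 1, the 990 strongest peaks, with 4.23% (2.16 to 8.13) beside 2.26%. All nuclear genes include 15345 piRNA genes, of which 0.678% had a thresholded peak. These genes lower the share of all nuclear genes: they are 15345 of the 44784 genes counted, but only 104 of the 1931 with a peak. Neither class was compared with a share that leaves them out. Neither interval is therefore shown to lie above the share of the remaining nuclear genes as a whole. Several miRNA genes shared a peak, so the 21 miRNA genes stood for 17 distinct peaks. The miRNA interval counts genes on a shared peak as separate, so it is too narrow. Whether it would stay above the share of all nuclear genes with each peak counted only 1 time was not tested. The 17 lincRNA genes had 17 peaks, and the peak at linc-154 and mir-8196.1 was common to both classes, which left 33 distinct peaks.

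**Figure D1:**
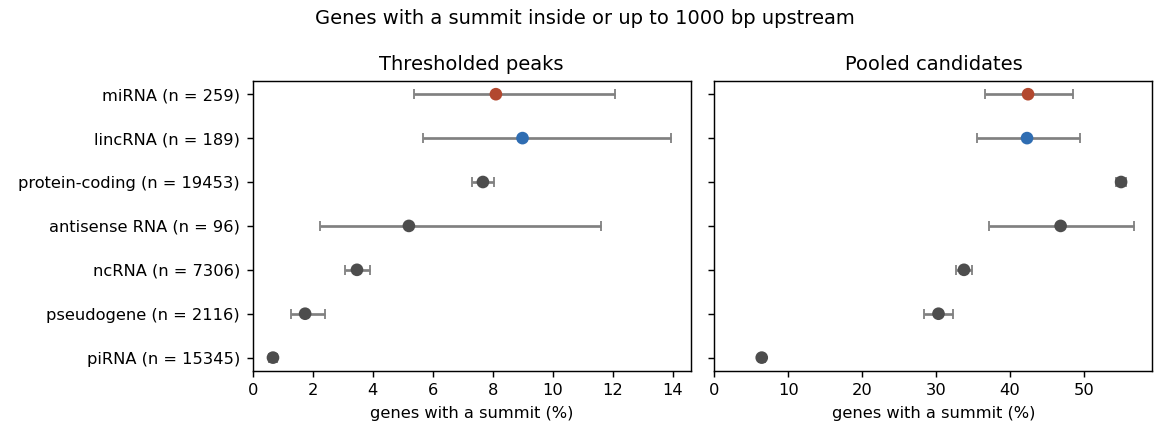
Percent of genes of each biotype with a summit inside the gene or up to 1000 bp upstream, in the thresholded list (left) and among the pooled candidates (right). Points are shares and bars 95% Wilson intervals over genes, so they cover counting error only. With 8.11% and 8.995%, miRNA and lincRNA genes sit beside protein-coding genes on the left, and with 42.5% and 42.3% below them on the right.

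The mature strands of the miRNA families that the results below turn on are shown first, 5′ to 3′, with the seed in capitals. They were read from the annotated mature transcripts on the RefSeq sequence of WBcel235. The arm that carries the family's seed is shown, and 5p and 3p give its side of the hairpin. In the first family, mir-51 to mir-56, 5 of 6 genes had a thresholded peak.

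mir-51-5p: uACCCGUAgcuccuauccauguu
mir-52-5p: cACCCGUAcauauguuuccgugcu
mir-53-5p: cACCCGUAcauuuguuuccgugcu
mir-54-3p: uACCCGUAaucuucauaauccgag
mir-55-3p: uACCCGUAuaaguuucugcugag
mir-56-3p: uACCCGUAauguuuccgcugag

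In the family of mir-229 and mir-63 to mir-66, 4 of 5 genes had a thresholded peak. These 4 genes form a cluster, and the mature strands of 3 of them are shown.

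mir-229-5p: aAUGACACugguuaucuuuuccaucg
mir-64-5p: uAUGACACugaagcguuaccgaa
mir-66-5p: cAUGACACugauuagggauguga

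In the let-7 family, mir-48 and mir-241 had a thresholded peak, and let-7, mir-84 and mir-795 did not.

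let-7-5p: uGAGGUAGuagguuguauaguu
mir-48-5p: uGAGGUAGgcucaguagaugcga
mir-84-5p: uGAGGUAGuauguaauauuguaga
mir-241-5p: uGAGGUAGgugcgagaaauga

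The other miRNAs with a peak and with a seed shown are mir-58.1, an abundant miRNA of a family that affects body size and egg laying, mir-796, which shares its seed with the muscle miRNA mir-1, and mir-5549 and mir-2214, which had the strongest peaks among miRNA genes after mir-354. The seed of mir-58.1 differs in its last base from a seed of 6 genes, mir-58.2, mir-80, mir-81, mir-82, mir-2209.1 and Y73B6A.17. None of these 6 genes had a thresholded peak. F09A5.15 is annotated on the strand opposite to mir-55, under the Ensembl name cel-mir-55b.

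mir-58.1-3p: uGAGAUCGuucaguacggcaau
mir-796-5p: uGGAAUGUaguugagguuaguaa
mir-5549-5p: cUUGUGAAauuaacgugagu
mir-2214-5p: aUUCGGUCcggagucaauggg
F09A5.15-3p: uAACCGAUagguuucugccgag

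The genomic sequence within 50 bp of the summit is shown for the peaks that carry the main observations, 101 bases each on the forward strand of ce11. Capitals mark the GA repeat GAGAGA, or TCTCTC where it lies on the reverse strand. The windows belong to linc-8 and F39E9.10, which had strong lincRNA peaks, to the cluster of mir-229, mir-64 and mir-65, and to mir-58.1, mir-241 and mir-53.

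linc-8: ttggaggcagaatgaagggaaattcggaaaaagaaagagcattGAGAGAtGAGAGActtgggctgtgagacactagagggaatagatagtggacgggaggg
F39E9.10: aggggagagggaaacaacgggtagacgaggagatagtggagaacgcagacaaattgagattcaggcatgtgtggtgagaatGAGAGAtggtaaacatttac
mir-229 cluster: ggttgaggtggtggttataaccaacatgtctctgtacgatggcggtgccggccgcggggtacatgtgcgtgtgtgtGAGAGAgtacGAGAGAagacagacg
mir-58.1: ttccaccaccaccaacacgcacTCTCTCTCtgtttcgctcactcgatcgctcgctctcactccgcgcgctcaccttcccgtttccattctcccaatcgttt
mir-241: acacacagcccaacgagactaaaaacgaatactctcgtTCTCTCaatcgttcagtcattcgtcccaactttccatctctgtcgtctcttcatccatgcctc
mir-53: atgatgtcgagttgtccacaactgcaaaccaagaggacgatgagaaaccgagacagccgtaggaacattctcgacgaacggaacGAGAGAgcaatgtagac

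The windows at the cluster of mir-54, mir-55 and mir-56 and at linc-128 held none of the words searched and are shown without capitals. They are the windows of the strongest miRNA cluster peak and of the strongest peak in a lincRNA exon.

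mir-54 cluster: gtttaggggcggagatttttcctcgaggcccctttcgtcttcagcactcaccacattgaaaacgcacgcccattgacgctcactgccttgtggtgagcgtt
linc-128: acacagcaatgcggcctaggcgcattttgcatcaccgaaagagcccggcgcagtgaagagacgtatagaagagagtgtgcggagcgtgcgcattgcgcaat

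Signal is the enrichment that the authors' peak caller gave each region. The thresholded list equals the 1980 pooled candidates with the highest signal, of which 1965 were nuclear, and its lowest signal was 65.04. The miRNA peaks were mostly of lower signal than the median of that list, and the lincRNA peaks had a median close to it. The median over distinct peaks was 75.66 for miRNA genes and 92.9 for lincRNA genes, beside 94.16 for all nuclear thresholded peaks. That overall median was reached by 5 of 17 miRNA peaks and 8 of 17 lincRNA peaks. In each class 1 of 17 peaks was among the 100 strongest of the 1965 nuclear peaks.

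Agreement between the replicates was close to that over all nuclear thresholded peaks. A replicate was taken to hold a peak if any of its 1980 strongest candidates shared 1 bp or more with it. Of the 33 peaks, 17 were found in both replicates (51.5%), beside 1018 of 1965 nuclear peaks (51.8%). With the 1980 strongest candidates of replicate 1 alone, 20 miRNA and 17 lincRNA genes had a summit in the window (4.29% of all nuclear genes), and with those of replicate 2 alone 19 and 16 (4.18%). Of the 33 peaks, those found in both replicates were 6 of 17 miRNA peaks and 11 of 17 lincRNA peaks, while 3 and 1 were found in neither replicate. The 8 strongest of the 33 peaks were found in both replicates and all were narrower than the usual width of 280 bp, and 9 of the other 25 were found in both.

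**Figure D2:**
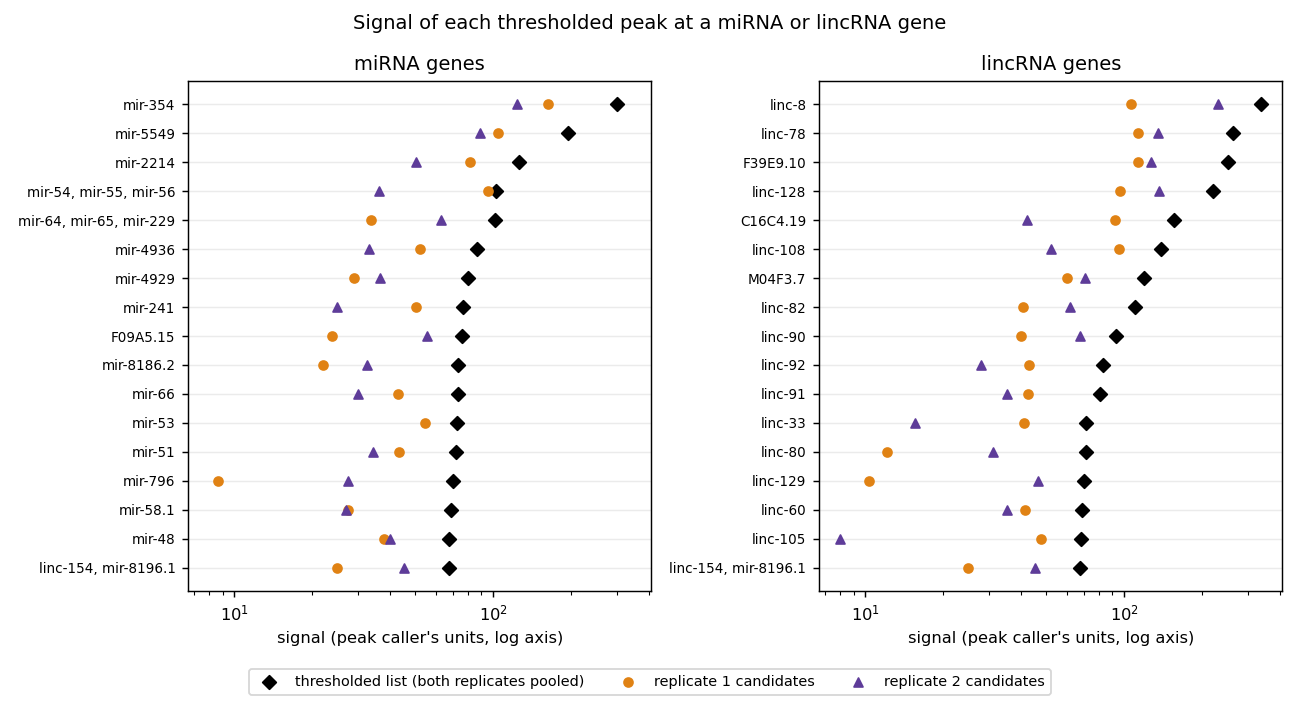
Signal of each distinct thresholded peak at a miRNA gene (left) and a lincRNA gene (right), on a log axis, in the thresholded list (diamonds) and for the overlapping candidate of replicate 1 (circles) and replicate 2 (triangles). Signal is not scaled between lists, so positions are compared within a symbol only. Low replicate values stand out at mir-796 in replicate 1 (8.652) and linc-105 in replicate 2 (7.993), and mir-53 has no candidate in replicate 2.

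Among lincRNA genes, the strongest peak lay just before linc-8, on chrII:2503786-2503995. Its signal was 338.8 in the thresholded list, where it ranked 70, and 106.1 and 230.8 in replicates 1 and 2. The summit was 85 bp upstream of the start of linc-8 and also upstream of the protein-coding gene gbas-1. The next was linc-78, with a peak on chrX:2242912-2243073. Its signal was 264.3 in the thresholded list, and 112.8 and 135.2 in replicates 1 and 2. This summit lay 118 bp upstream of linc-78 and also upstream of rpl-11.2, which encodes a protein of the large ribosomal subunit. Both peaks ranked high in each replicate, at 200 and 50 for linc-8 and at 176 and 116 for linc-78.

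F39E9.10, linc-128 and C16C4.19 had strong peaks with no protein-coding gene whose start lay within 1000 bp downstream of the summit. At F39E9.10 the signal was 251.4 in the thresholded list and 113.1 and 127.4 in replicates 1 and 2, with the summit 52 bp upstream. At linc-128 the signal was 220.2 in the thresholded list and 96.55 and 136.8 in the replicates, with the summit 562 bp inside the gene, in an exon. At C16C4.19 it was 156.3 in the thresholded list and 92.02 and 42.23 in the replicates, with the summit 76 bp upstream. The nearest protein-coding starts to these 3 lincRNA genes were 3993, 5365 and 1645 bp away. Among the 17 lincRNA peaks these were the strongest without a protein-coding gene beside them.

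The peak of linc-108 had a signal of 139.0 in the thresholded list and 95.46 and 52.31 in replicates 1 and 2. It lay 306 bp upstream of linc-108 and also upstream of acs-2, which encodes a fatty acyl-CoA synthetase. At linc-82 the signal was 110.2, and 40.49 and 61.74 in the replicates, with the summit 443 bp upstream. At linc-90 it was 92.9, and 39.86 and 67.71 in the replicates, with the summit in an intron of linc-90 and upstream of gei-4. These 3 peaks were found in both replicates.

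The weaker lincRNA peaks outside chromosome I were those of linc-92 (83.01), linc-33 (71.06), linc-129 (70.15), linc-60 (68.56), linc-105 (67.95) and linc-154 (67.55). Only that of linc-60 was among the top candidates of both replicates, with 41.51 in replicate 1 and 35.29 in replicate 2. The summit of linc-92 was also upstream of nhr-142, a nuclear hormone receptor gene, and that of linc-33 upstream of trpp-9, which encodes a subunit of the TRAPP tethering complex. The peak in an intron of linc-105 rested on replicate 1, where its candidate had a signal of 47.76 and rank 1150, since the candidate of replicate 2 had 7.993 and rank 29172 of 30000. The peak in an intron of linc-129 rested on replicate 2, with 46.61 and rank 1013, beside 10.29 and rank 24261 in replicate 1. These 2 weak intronic peaks were thus high in opposite replicates, while the peak in an intron of linc-90 was found in both.

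On chromosome I, M04F3.7, linc-91 and linc-80 had thresholded peaks. M04F3.7 had a signal of 118.9 in the thresholded list and 60.32 and 70.82 in replicates 1 and 2, with the summit 646 bp upstream and also upstream of rpa-2, which encodes a subunit of replication protein A. The peak of linc-91 had 80.38, and 42.38 and 35.34 in the replicates, and lay upstream of chd-7, a chromatin remodeller gene, as well. That of linc-80 had 70.95, and 12.16 and 31.11 in the replicates, and was found in neither replicate's top candidates.

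The strongest miRNA peak was also on chromosome I, at mir-354. Its signal was 299.6 in the thresholded list, where it ranked 88, and 162.4 and 123.8 in replicates 1 and 2. The hairpin of mir-354 lies in an intron of rps-20, which encodes a protein of the small ribosomal subunit, on the same strand. The summit was 841 bp upstream of the hairpin, outside protein-coding genes and upstream of both rps-20 and ekl-4. The same peak is thus assigned to the hairpin and to the host gene.

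Among the other single miRNA genes, mir-5549 had the strongest peak, on chrIII:6972056-6972148. Its signal was 194.3 in the thresholded list and 104.1 and 88.92 in replicates 1 and 2, with ranks of 212 and 272 there. The summit fell on the first base of the annotated hairpin and lay upstream of both eef-1A.1, which encodes a translation elongation factor, and rfc-4, which encodes a subunit of the clamp loader replication factor C. At mir-2214, in an intron of B0361.11, the signal was 125.4, and 81.16 and 50.14 in the replicates, with the summit 50 bp upstream of the hairpin. Both genes had a peak in each replicate's top candidates, and both lie on chromosome III.

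The cluster of mir-54, mir-55 and mir-56 spans 404 bp on chromosome X, in an intron of F09A5.3 and on its opposite strand. All 3 genes were assigned the same peak, on chrX:13145299-13145578, with a signal of 102.7 in the thresholded list and 95.22 and 36.26 in replicates 1 and 2. Its summit was 345 bp upstream of mir-54, the first hairpin of the cluster. F09A5.15, on the strand opposite to mir-55, was assigned a different peak at the other side of the cluster, with a signal of 75.66, and 23.74 and 55.31 in the replicates. That summit was 857 bp upstream of F09A5.15 and, like the first, in the intron of F09A5.3. The hairpins thus had a peak on each side.

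The cluster of mir-229, mir-64, mir-65 and mir-66 spans 755 bp on chromosome III, in an intron of gcn-1, a gene of translational control, on the same strand. The start of gcn-1 lies 20507 bp from mir-229. A peak 377 bp upstream of mir-229, on chrIII:2171935-2172214, was assigned to mir-229, mir-64 and mir-65 and had a signal of 102.0 in the thresholded list and 33.68 and 63.09 in replicates 1 and 2. A second peak, with 73.09, and 42.9 and 30.07 in the replicates, had its summit 30 bp upstream of mir-66 and inside mir-65. Each of these peaks was found in the top candidates of 1 replicate, the first in replicate 2 and the second in replicate 1.

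In the mir-51 family, whose members act redundantly and are needed for normal development, the remaining genes were mir-51, mir-53 and mir-52. The genes mir-53 and mir-51 lie 1480 bp apart on chromosome IV, outside protein-coding genes, and each had its own peak. At mir-51 the signal was 71.85 in the thresholded list and 43.34 and 34.29 in replicates 1 and 2, with the summit in the hairpin. At mir-53 it was 72.72, and 54.34 in replicate 1, with the summit 112 bp upstream and no overlapping candidate in replicate 2. At mir-52, elsewhere on chromosome IV, the pooled candidate had 45.98 and did not reach the threshold, while its replicate candidates had 42.91 and 72.53. The family thus had 5 of 6 genes with a thresholded peak, on 3 distinct peaks, and all 6 with a pooled candidate.

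In the let-7 family the peaks were at mir-241 and mir-48, sisters of let-7 that act in the middle larval stages and lie 1678 bp apart on chromosome V. At mir-241 the signal was 76.27 in the thresholded list and 50.17 and 24.95 in replicates 1 and 2, with the summit 361 bp upstream. At mir-48 it was 67.75, and 38.01 and 39.93 in the replicates, with the summit 227 bp upstream. Only the peak of mir-48 was among the top candidates of both replicates. Neither peak lay in or just before a protein-coding gene.

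At let-7 itself, the timer of the larva-to-adult switch, the strongest pooled candidate had a signal of 55.66 and missed the threshold, with 27.73 and 23.57 in replicates 1 and 2. The annotated gene of let-7 is 1732 bp long because it includes primary transcripts, and this summit lay 1358 bp inside it. With 2000 bp upstream in place of 1000 bp, the strongest candidate of let-7 had a signal of 105.7, which is above the threshold. At mir-84 the pooled candidate had 33.44, and 29.98 and 10.87 in the replicates. The last of the family, mir-795, had no pooled candidate and 11.27 in replicate 2.

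**Figure D3:**
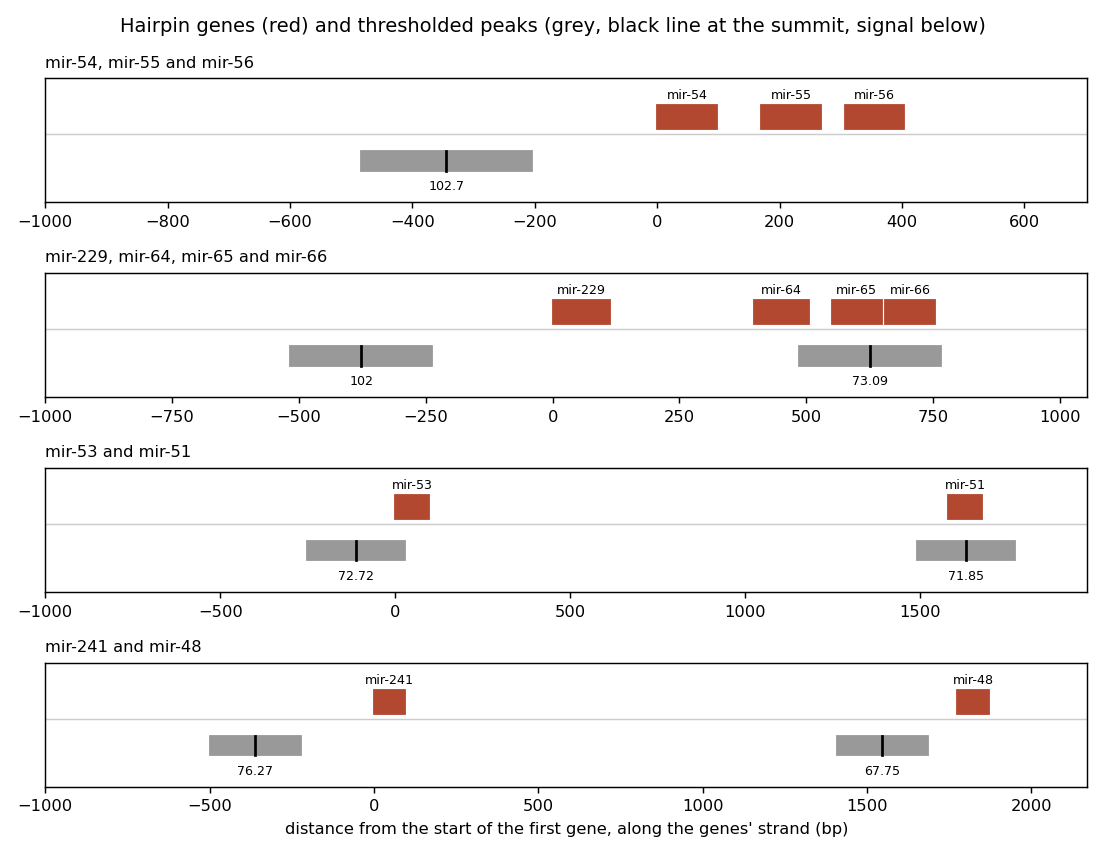
Hairpin genes (red) and thresholded peaks (grey, with a black line at the summit and the signal below) at 4 miRNA loci, by distance in bp from the start of the first gene along the genes' strand. The clusters of mir-54 to mir-56 and of mir-229 to mir-66 have a peak 345 and 377 bp before the first hairpin. The neighbours mir-53 and mir-51, and mir-241 and mir-48, have a peak each.

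The other miRNA peaks had signals from 67.55 to 86.28, beside the lowest thresholded signal of 65.04. At mir-58.1, in an intron of phkb-1, a phosphorylase kinase subunit gene, the signal was 68.53 in the thresholded list and 27.52 and 26.92 in replicates 1 and 2. At mir-796 it was 69.83, and 8.652 and 27.56 in the replicates, and at mir-8186.2 it was 73.32, and 22.08 and 32.47 in the replicates. These were the 3 miRNA peaks outside the top candidates of both replicates. The peaks of mir-4936 (86.28), in the hairpin and upstream of nduf-9, a gene of respiratory complex I, and of mir-4929 (79.61), in an intron of E01G4.3, were each found in 1 replicate. So was the peak in the annotated gene of mir-8196.1 and in an exon of linc-154 (67.55, and 24.85 and 45.27 in the replicates). It was the weakest of the 33, and mir-8196.1 is named for sharing it, after its values were seen.

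Of the miRNAs named for their known roles, mir-51 and mir-58.1 had a thresholded peak and the rest did not. The pooled candidate of mir-71, which acts in lifespan, had 45.7, and that of mir-34, a stress-response miRNA, 40.37. That of mir-1, the muscle miRNA, had 28.7 with no candidate in replicate 1, and that of mir-35, whose family is needed in the embryo, 27.68. The early timer lin-4 had 19.2, close to the lowest pooled signal of 16.02. For lsy-6, which sets left-right asymmetry of a pair of taste neurons, no list held a summit in the window. With 2000 bp upstream in place of 1000 bp, the strongest candidate of mir-71 had 90.76, above the lowest thresholded signal of 65.04. Those of mir-34 (53.55) and lin-4 (51.26) stayed below it, and those of mir-1 and mir-35 did not change. All 8 genes mir-35 to mir-42 had a pooled candidate and none a thresholded peak, with signals from 20.88 to 33.79 on 3 distinct candidates. These 8 genes share a seed and were the largest family by seed.

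The candidates just below the threshold were at mir-800 (63.19), mir-4920 (61.97) and mir-1830 (61.19), and at linc-2 (64.0), linc-27 (62.12) and linc-84 (61.47). The weakest thresholded peaks, at linc-154 with mir-8196.1 (67.55) and mir-48 (67.75), were little stronger. In replicates 1 and 2 mir-800 had 27.78 and 40.17, and mir-1830 had 9.839 and 24.52.

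Among all candidates, which by design include background regions, the classes looked alike and lay between all genes and protein-coding genes. A pooled candidate was found for 110 of 259 miRNA genes (42.5%, 36.6 to 48.6) and 80 of 189 lincRNA genes (42.3%, 35.5 to 49.5). The background was 33.6% of all nuclear genes, 55.1% of protein-coding genes and 33.9% of the other non-coding genes. Here too the share of all nuclear genes is lowered by the 15345 piRNA genes, of which 6.4% had a pooled candidate. A share without them was not computed, so neither class is shown to lie above the remaining nuclear genes as a whole. Replicate 1 gave 111 miRNA and 84 lincRNA genes (35.6% of all nuclear genes) and replicate 2 gave 124 and 87 (35.1%). A candidate in the pooled list and in both replicates was found for 73 miRNA and 55 lincRNA genes, and none in any of these lists for 95 and 76. The shares of all nuclear genes by these rules were not computed, so these counts cannot be set against a background. Below the threshold the pooled signals of the genes had medians of 29.04 for miRNA and 28.28 for lincRNA genes.

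Per length of sequence, thresholded summits were denser in the windows of both classes than in those of protein-coding genes. The merged miRNA windows covered 0.253 Mb and held 17 summits, or 67.2 per Mb. The merged lincRNA windows covered 0.4105 Mb and held 20 summits, or 48.7 per Mb. Windows of protein-coding genes held 18.05 per Mb and the nuclear genome 19.6. Pooled candidates were at 502 per Mb in miRNA windows, 324 in lincRNA windows, 326.7 in protein-coding windows and 299 over the genome. The median gene length was 95 bp for miRNA, 755 bp for lincRNA and 1995 bp for protein-coding genes, so miRNA windows are mostly upstream sequence and protein-coding windows mostly gene body. Whether density differs at a matched distance from gene starts was not tested.

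Most summits lay upstream of the gene in both classes. The median position was 345 bp upstream of the start for the 21 miRNA genes and 85 bp upstream for the 17 lincRNA genes. Counted in either direction, the median distance from the start was 345 bp and 342 bp, since several lincRNA summits lay far inside the gene. The assigned summit was inside the gene for 4 miRNA genes, mir-5549, mir-4936, mir-51 and mir-8196.1, and for 5 lincRNA genes, linc-128, linc-90, linc-129, linc-105 and linc-154. Upstream within 250 bp lay 4 miRNA and 7 lincRNA summits, and more than 500 bp upstream 6 and 2. An annotated hairpin start is a processing site and not a transcription start, so the distances in the classes do not measure the same thing, and their difference was not tested.

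**Figure D4:**
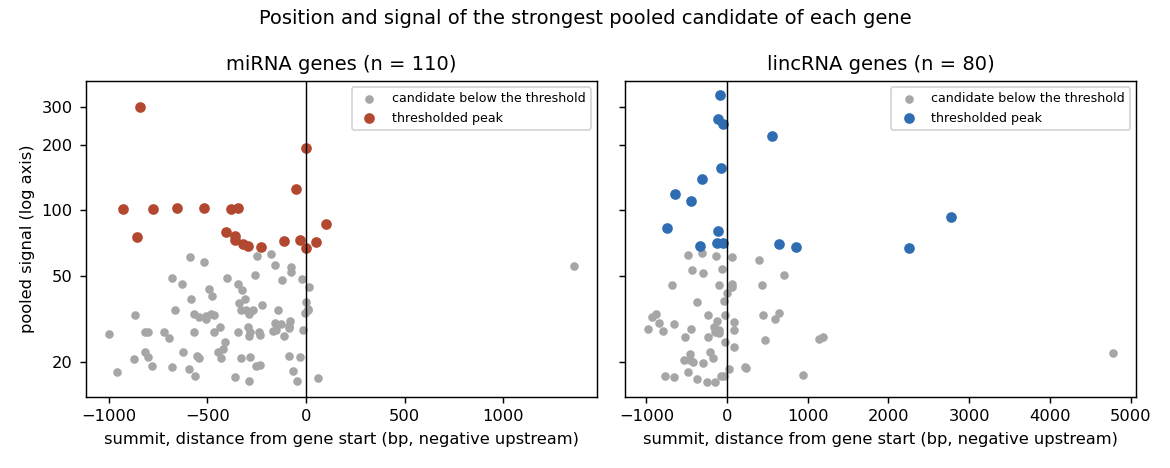
Position of the summit of the strongest pooled candidate relative to the gene start (x axis, bp, negative upstream) and its signal (y axis, log) for the 110 miRNA genes (left) and 80 lincRNA genes (right) that have one. Coloured points are thresholded peaks. Those of miRNA genes spread over the upstream 1000 bp, and 5 of the 17 lincRNA genes have theirs inside the gene. Counted in either direction, the median distance from the start is 345 bp for miRNA and 342 bp for lincRNA genes.

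Protein-coding genes were close to many of these peaks, in different ways for each class. Of the 17 miRNA peaks, 7 had the summit in an intron of a protein-coding gene and 4 up to 1000 bp upstream of such a gene. Of the 17 lincRNA peaks, none had the summit inside a protein-coding gene and 11 had it upstream of one. The genes themselves are placed differently. Of 259 miRNA genes, 73 lay inside a protein-coding gene on the same strand and 32 on the opposite strand, beside 12 and 4 of 189 lincRNA genes. Whether the peaks differ beyond this placement was not tested. No summit of either class lay in an exon of a protein-coding gene, and the intron and exon shares of all nuclear thresholded peaks are not given beside these counts. Of all nuclear thresholded peaks, 77.8% lay inside or up to 1000 bp upstream of a protein-coding gene, beside 11 of 17 in each class here. At these 11 and 11 peaks, occupancy at the non-coding gene and at the protein-coding gene cannot be told apart. The miRNA genes clear of protein-coding genes were mir-241, mir-48, mir-51, mir-53, mir-796 and mir-8196.1, and the lincRNA genes F39E9.10, linc-128, C16C4.19, linc-129, linc-105 and linc-154.

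By genomic setting, peaks were found in every main group of miRNA genes. Of those inside a protein-coding gene on the same strand, 9 of 73 had a thresholded peak (12.3%, 7 distinct peaks), beside 3 of 32 on the opposite strand (1 peak) and 9 of 151 outside (5.96%). Of 52 genes in the 18 clusters, 7 had a peak, all in the clusters of mir-54 and mir-229, and of 207 single genes 14 had one. On chromosome III, 7 of 27 miRNA genes had a peak (25.9%) on 5 distinct peaks. The cluster of mir-229 alone made up 4 of these 7 genes, on 2 peaks. Other chromosomes ranged from 3.12% to 8.11%. The share of all nuclear genes on each chromosome was not computed. LincRNA genes within 1000 bp of a protein-coding start had a peak in 8 of 55 cases (14.5%), and those further away in 9 of 134 (6.72%). LincRNA genes with a peak had a median length of 1145 bp and those without 724.5 bp, and a longer gene has a longer window. None of these differences was tested.

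The words searched within 50 bp of the 33 summits, on both strands, were the homeodomain words TAATTA and TAATCA, the core promoter word TATAAA, the tRNA B box core GTTCGA, the piRNA promoter word CTGTTTCA and the GA repeat GAGAGA. Overlaps between words were not removed. The homeodomain words were rare here and elsewhere. TAATTA was in 0 of 33 windows, which allows a share of up to 10.4% by the Wilson interval, and TAATCA in 1, at linc-105. Among the other 1932 nuclear thresholded peaks they were in 1.6% and 3.47%, and among the 28019 nuclear candidates below the threshold in 3.17% and 4.93%, all within the intervals of the 33 windows. TATAAA was in 3 windows, GTTCGA in 3 and CTGTTTCA in 0, beside 4.76%, 8.9% and 0.259% of the other thresholded peaks. Absence from these windows says only that the letters are not there.

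The window at linc-105 is shown with the homeodomain word in capitals, as TGATTA on the forward strand. It is the only match to either homeodomain word, in a peak that is weak in replicate 2.

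linc-105: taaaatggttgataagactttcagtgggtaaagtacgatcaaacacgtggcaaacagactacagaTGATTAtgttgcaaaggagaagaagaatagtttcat

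GAGAGA was the most frequent of the words at these peaks. It was in 14 of 33 windows (42.4%, 27.2 to 59.2), 7 of 17 in each class. Among other nuclear thresholded peaks it was in 20.8% (19.0 to 22.6) and among candidates below the threshold in 8.93% (8.6 to 9.27). The interval over all 33 peaks lay above that of the other thresholded peaks, while the interval of either class alone (21.6 to 64.0) overlapped it. The difference was not tested, and the word was chosen with earlier results of these data known. Mean GC content was 47.4% in the 33 windows, 46.5% at other thresholded peaks and 40.2% at candidates below the threshold.

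**Figure D5:**
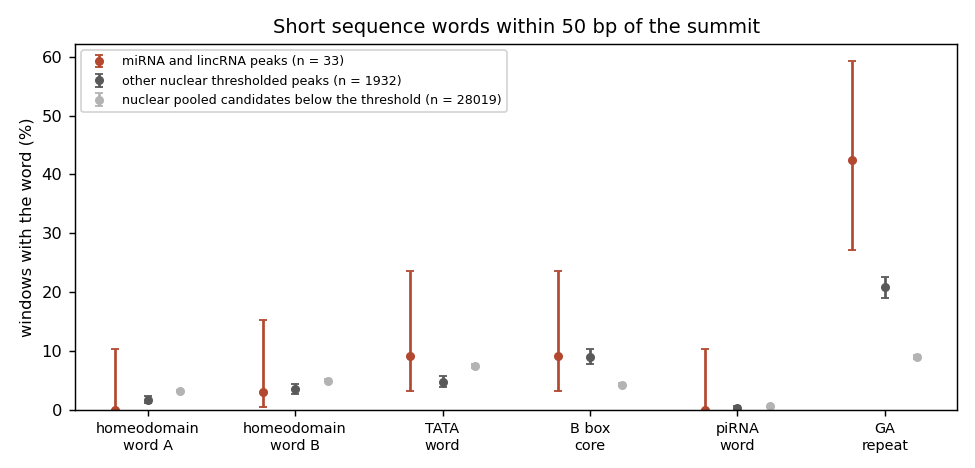
Percent of 101-base windows around the summit that hold each word, for the 33 miRNA and lincRNA peaks, the other nuclear thresholded peaks and the nuclear pooled candidates below the threshold. Homeodomain words A and B are TAATTA and TAATCA, and bars are 95% Wilson intervals over windows. The GA repeat is in 42.4%, 20.8% and 8.93%, and the homeodomain words are at or near 0 in the 33 windows.

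The windows of linc-78 and mir-5549, the lincRNA and miRNA genes whose peaks ranked 116 and 215, shared a run of 18 bases. It was noticed when the windows were compared with each other, after their values were seen. Exact copies were found at 3 places in the nuclear genome, each within 12 bp of a thresholded summit. They were upstream of rpl-11.2 at linc-78 on chromosome X, upstream of rfc-4 at mir-5549 on chromosome III, and upstream of pbs-1, which encodes a proteasome subunit, on chromosome IV. The summit at pbs-1 had a signal of 67.2 in the thresholded list. The 101 bases around each summit are shown on the forward strand, with the run in capitals.

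linc-78: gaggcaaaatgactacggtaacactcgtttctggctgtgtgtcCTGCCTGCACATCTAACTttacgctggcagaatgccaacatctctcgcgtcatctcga
mir-5549: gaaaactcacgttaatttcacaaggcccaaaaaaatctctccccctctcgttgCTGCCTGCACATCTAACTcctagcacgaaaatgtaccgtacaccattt
pbs-1: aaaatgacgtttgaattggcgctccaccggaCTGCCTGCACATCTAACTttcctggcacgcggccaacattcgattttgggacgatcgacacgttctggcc

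With up to 1 mismatch the run was found at 5 places, 3 of them within 50 bp of a thresholded summit. With up to 2 mismatches it was found at 18 places, 5 of them within 50 bp of a thresholded summit and 6 of a pooled one. The added pair of thresholded summits lay near the starts of eef-2, which encodes a translation elongation factor (signal 270.2), and tmem-107 (216.6). Since the run was found by comparing the windows of linc-78 and mir-5549, the choice of windows put both of those copies at a thresholded summit, and only the copy at pbs-1 was not so placed.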

How the data were processed

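The deposited ce11 peak lists of both replicates (a candidate list each, a pooled candidate list and an IDR-thresholded list) were used, 4 lists in all. Ce10 lists were not used. Signal and −log10 q are values the authors deposited from their peak caller. The −log10 q is 2.43 for all thresholded peaks, so peaks were ordered by signal. A control was used in peak calling, per the deposited README files. The sources used here do not name the aligner, the peak caller or the IDR threshold, and depth is unknown. Each list of candidates holds 30000 regions.

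Genes came from Ensembl release 115, with symbols matched by gene ID in the RefSeq annotation of WBcel235 for all 448 genes. Summits were assigned to genes, and the assignment was tested on simulated data. Intervals are 95% Wilson intervals over genes or peaks and cover counting error only. Clusters were miRNA genes of 1 strand in which the starts of neighbouring genes lay 1000 bp or less from each other. Named genes were up to 20 per class with a thresholded peak, by signal, the 3 strongest candidates per class below the threshold, and 9 miRNAs of known role. Members, lists and words were chosen with earlier results of these data known. Python 3.11.15, numpy 2.4.6, pandas 2.3.3 and scipy 1.17.1 were used. The mature sequence of 1 clustered miRNA is not reported here.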

Additional observations from a re-analysis of the deposited data

How the results depend on the processing

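No paired analysis was possible because there is 1 group. The reach of the window moved the counts. Of miRNA genes with a thresholded peak (21), 8 were counted with 200 bp upstream, 5 with the gene only and 35 with 2000 bp. The list cut to its 990 strongest peaks left 9, peaks among the top candidates of both replicates left 8, and leaving out peaks also at a protein-coding gene left 6, beside 2.26%, 2.3% and 0.351% of all nuclear genes. Of lincRNA genes (17), these last 3 settings left 8, 11 and 8, and the gene body alone 7. With pooled candidates, 110 miRNA genes fell to 44 with 200 bp and to 15 in the gene body, and 80 lincRNA genes to 38 in the gene body. For thresholded peaks, shares of all nuclear genes moved too, to 2.4% with 200 bp, 1.28% in the gene body and 5.72% with 2000 bp. For pooled candidates the shares of all nuclear genes at these window lengths were not computed. Without one replicate, counts ranged from 19 to 20 and 16 to 17 for thresholded peaks, and from 111 to 124 and 84 to 87 for candidates. With 25 or 100 bp to each side, GAGAGA ranged from 27.3% to 51.5% and the homeodomain words together from 3.03% to 9.09%, within their intervals. TATAAA and likewise GTTCGA dropped from 9.09% to 3.03% with 25 bp, below theirs. The shares at the other nuclear thresholded peaks moved as well. GAGAGA was there in 11.1% with 25 bp and 32.6% with 100 bp, and the homeodomain words together in 2.28% and 12.9%. With 25 bp, TATAAA was there in 1.76% and GTTCGA in 4.24%. Among named genes the signal changed for 4 and not for 40 with 500 bp upstream, and for 8 and not for 42 with 2000 bp. Their rank moved by over 1.5 times for 33 of 49 genes without replicate 1 and for 32 of 49 without replicate 2. Depth is unknown, so no limit of detection can be given for genes without a peak.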

Other observations

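The genes left out for lying 100 bp or less from a snoRNA, snRNA or tRNA gene were mir-77, mir-5546, F19G12.10, linc-22, linc-37, linc-44 and K07C10.8. Thresholded peaks were found at linc-44 (signal 147.9) and K07C10.8 (100.2) and at none of the other 5.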
